A study of Mus musculus with 3 samples.

Results

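The genes described here are 9 genes that mark hematopoietic stem and multipotent progenitor cells in the mouse, namely Cd34, Hlf, Procr, Slamf1, Angpt1, Tek, Erg, Esam and Msi2. They were taken by name, from a choice made with earlier results of these data known, and make up 9 of the 16742 genes listed in any of the 3 RNA-seq libraries. All 9 were listed in the control library, 6 in TR1 and 5 in TR9.

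The control library came from lin- bone marrow cells, the cells left after depletion of those that carry mature lineage markers, of C57BL/6 mice with the wild type genotype. Those of TR1 and TR9 came from GFP+ bone marrow cells of C57BL/6 mice with the genotype TBLR1-RARa, a fusion of TBLR1 to the retinoic acid receptor alpha that is called TR here. These were leukemia mice of the third generation of transplantation. The fusion had been carried into lin- cells by an MSCV retrovirus that expresses GFP from the same transcript. TR1 and TR9 each trace back to a single primary mouse, so each is 1 leukemia. Every library was made from 3 mice pooled, aged 6 to 8 weeks according to the labels. Control cells came from healthy mice and were isolated by lineage depletion, whereas TR cells were isolated by sorting for GFP. The effects of TR, of the retrovirus, of transplantation, of leukemia and of the isolation therefore cannot be told apart.

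Stem cells at the top of hematopoiesis renew themselves and give rise to multipotent progenitors, which pass through committed progenitors before they become promyelocytes and other precursors. Surface proteins such as CD34, CD150 (Slamf1), EPCR (Procr) and ESAM are used to isolate these early cells. Nuclear and RNA-binding regulators such as HLF, ERG and Musashi-2 are known for their part in self-renewal, and TIE2 (Tek) with its ligand angiopoietin-1 for the quiescence of stem cells in their niche.

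The depth, as the sum of expected counts, was 5488778 for control, 5571409 for TR1 and 5129662 for TR9. In these bulk libraries, fewer cells of a type and less RNA per cell cannot be told apart. There was 1 library per group, so no difference has a replicate check, the test compares these libraries and not the conditions, and the 95% intervals (exact, conditional binomial) cover counting error only. A gene was called downregulated or upregulated at a false discovery rate of at most 0.001 in a conditional exact Poisson test and an absolute log2 ratio of FPKM (fragment counts scaled for gene length and library total) of at least 1. Unlisted genes were taken as 0, and their fold was computed against 3 counts, the floor used here, which corresponds to between 0.538 and 0.585 CPM. The lists of related genes and cell markers used below were drawn up with earlier results of these data known.

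In TR1, 7 of the 9 genes were downregulated, 1 was upregulated and 1 was not called, whereas 13.0% of all 16282 genes tested were downregulated and 8.09% upregulated. In TR9, 6 were downregulated, 1 was upregulated and 2 were not called, against 10.8% and 9.37% of 16303 genes. These shares of all genes apply to every list counted below as well. The upregulated gene was Erg in each comparison. Both comparisons use the same control library, so they are not independent of each other. The median log2 FPKM ratio of the 9 genes was −5.40 in TR1 and −4.42 in TR9, where that of all genes was −0.29 and −0.12. With counts in place of FPKM and genes at 0 set to the floor, the medians of the 9 genes were −4.41 and −4.09.

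**Figure D1:**
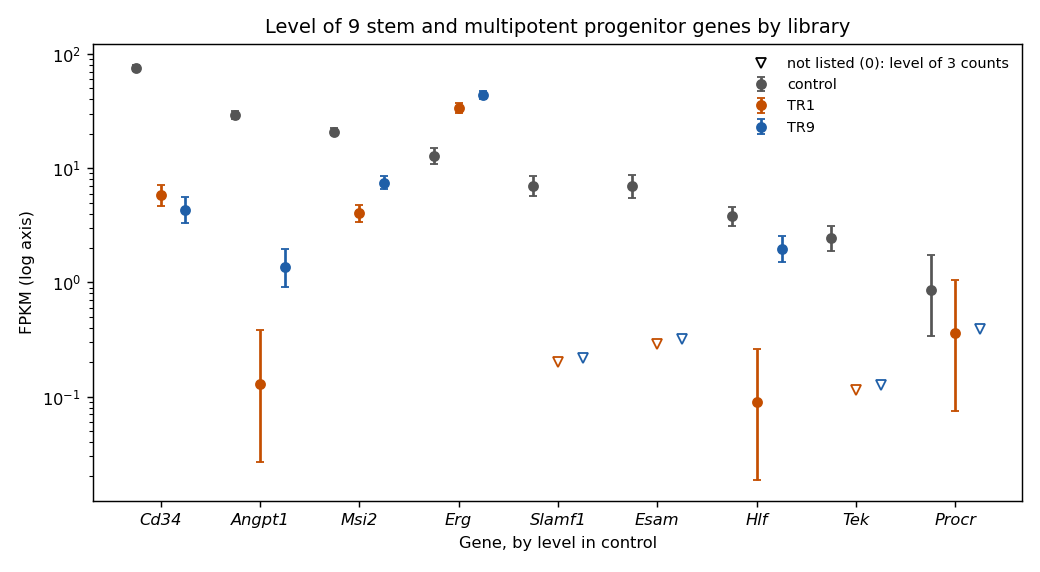
FPKM (log axis) of each of the 9 genes in control (grey), TR1 (orange) and TR9 (blue), with bars for the 95% exact counting interval, and with open triangles at the level of 3 counts where a gene was not listed. Erg is the gene whose TR1 and TR9 levels lie above control, and Slamf1, Esam and Tek are at 0 in TR1 and TR9.

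Promoter sequences are shown for Erg, the gene that was upregulated, and for Slamf1 and Tek, which were not listed in either TR library. They were taken from RefSeq on GRCm38.p6, in which 7 of the 9 genes have a promoter entry, with 11 start sites among them. Each run holds the 250 bases before the start, 5′ to 3′ on the strand of the gene. Capitals mark a match on either strand. The motifs searched were the core of ETS factors, spelled GGAAG, and the site of GATA factors, spelled GATAAG. A half-site of retinoic acid receptors was searched as AGGTCA and the TATA box as TATAAA. None of the matches shown overlaps another.
Erg, start 1, chr16:95586594-95586843, minus strand: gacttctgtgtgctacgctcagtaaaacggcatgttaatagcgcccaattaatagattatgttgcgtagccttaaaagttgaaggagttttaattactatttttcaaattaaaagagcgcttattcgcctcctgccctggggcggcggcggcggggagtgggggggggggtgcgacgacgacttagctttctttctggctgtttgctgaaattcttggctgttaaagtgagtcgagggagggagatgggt
Erg, start 2, chr16:95530366-95530615, minus strand: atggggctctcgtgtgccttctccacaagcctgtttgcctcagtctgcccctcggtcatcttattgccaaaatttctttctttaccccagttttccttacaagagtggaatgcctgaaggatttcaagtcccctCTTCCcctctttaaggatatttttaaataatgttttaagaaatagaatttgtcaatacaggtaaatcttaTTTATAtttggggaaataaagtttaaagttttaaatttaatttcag
Erg, start 3, chr16:95459349-95459598, minus strand: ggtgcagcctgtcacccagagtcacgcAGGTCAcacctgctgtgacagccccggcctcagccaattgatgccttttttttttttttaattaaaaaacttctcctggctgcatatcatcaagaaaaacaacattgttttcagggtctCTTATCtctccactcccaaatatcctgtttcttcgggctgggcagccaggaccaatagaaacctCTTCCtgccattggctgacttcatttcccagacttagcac
Slamf1, chr1:171766882-171767131, plus strand: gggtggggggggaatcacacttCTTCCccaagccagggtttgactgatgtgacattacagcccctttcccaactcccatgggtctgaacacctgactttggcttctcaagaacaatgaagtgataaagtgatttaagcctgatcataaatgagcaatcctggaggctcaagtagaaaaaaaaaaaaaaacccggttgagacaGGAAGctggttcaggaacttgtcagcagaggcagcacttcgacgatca
Tek, chr4:94739039-94739288, plus strand: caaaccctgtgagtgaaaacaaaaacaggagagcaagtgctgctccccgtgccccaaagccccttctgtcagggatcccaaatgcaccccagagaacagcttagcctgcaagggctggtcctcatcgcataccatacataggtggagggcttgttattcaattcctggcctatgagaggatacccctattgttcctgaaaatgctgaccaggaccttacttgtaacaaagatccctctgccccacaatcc

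The 3 Erg windows differ from each other. The first holds 14 CpG dinucleotides and none of the motifs, whereas the second holds 2 CpG, an ETS core and a TATA box, and the third holds 3 CpG and 1 match each to the ETS core, the GATA site and the receptor half-site. The Slamf1 window holds 2 ETS cores and the Tek window none of the motifs. Of the 11 windows of the 7 genes, the ETS core was in 6, the receptor half-site in 2, the GATA site in 1 and the TATA box in 1. The windows of Msi2 overlap each other for most of their length and hold none of these motifs. By gene, the ETS core was in 5 of 7, the receptor half-site in 2, the GATA site in 1 and the TATA box in 1. The shares of all 32851 promoter windows of the same length with these motifs are 64.1%, 14%, 6.55% and 12.4%. A second form of the receptor half-site, AGTTCA, was in 0 of the 11 and in 11.8% of all windows. The expected counts are summed over transcripts, so the start used in each library is not known.

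Erg, an ETS family transcription factor required for the maintenance of stem cells, was the exception among the 9 genes. It had 155 expected counts in control, against 419 in TR1 and 499 in TR9, or 12.8, 33.9 and 43.9 FPKM. Both TR libraries lay above control, and their intervals did not reach that of control. The log2 count ratio was 1.41 for TR1 (95% interval 1.14 to 1.69) and 1.78 for TR9 (1.52 to 2.05), which corresponds to 2.66-fold and 3.45-fold higher. Over the other scalings and pseudocounts tried, the ratio ran from 1.19 to 1.65 in TR1 and from 1.68 to 1.91 in TR9. When a variation between replicates was assumed, since none could be measured, the call was lost in TR1 at a biological coefficient of variation of 0.2 (exact test of edgeR), and in TR1 and TR9 with 0.4 or with a threshold of an absolute log2 ratio of 2. In rank among listed genes, Erg moved from the 61.2 percentile of FPKM in control to 84.4 in TR1 and 87.9 in TR9.

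Erg therefore held a different share of the FPKM of the 9 genes in each library. It made up 7.98% of their summed FPKM of 160.0 in control, 76.5% of 44.3 in TR1 and 74.3% of 59.1 in TR9. Without Erg, the remaining 8 genes summed to 147.2 FPKM in control, against 10.4 in TR1 and 15.2 in TR9. In control the most abundant of the 9 was Cd34, with 47.4% of the sum, and it held 13.1% in TR1 and 7.35% in TR9.

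Among 16 ETS family genes, Erg included, 0 were downregulated and 2 upregulated (12.5%) in TR1. In TR9, 1 was downregulated (6.25%) and 4 were upregulated (25%). Of all genes tested, 13.0% were downregulated and 8.09% upregulated in TR1, and 10.8% and 9.37% in TR9. Ets2 had 92 counts in control, against 410 in TR1 and 282 in TR9, and was upregulated in each comparison, by log2 count ratios of 2.13 and 1.71. Spi1, which encodes the myeloid factor PU.1, had 434, 733 and 1690 counts, and Ets1 had 247, 440 and 1032. Both were upregulated in TR9, by 2.06 and 2.16, and were not called in TR1, at 0.73 and 0.81. Directly compared, Spi1 and Ets1 were higher in TR9 than in TR1, by 1.32 and 1.35, as was Elk3, with 270, 197 and 396 counts. Erf, an ETS repressor, was the downregulated gene in TR9, with 219, 173 and 78 counts. Fli1, the closest relative of Erg and named here after its values were seen, had 596, 644 and 752 counts and was not called.

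Cd34, a sialomucin of early progenitors and of endothelium, was the most abundant of the 9 genes in control. It had 1039 expected counts in control, against 83 in TR1 and 57 in TR9, or 75.8, 5.80 and 4.34 FPKM. Control stood above the others, and the intervals of TR1 and TR9 overlapped. The log2 count ratio was −3.67 for TR1 (95% interval −4.01 to −3.34) and −4.09 for TR9 (−4.50 to −3.71), 12.7-fold and 17.0-fold lower. In TR1 the call was lost with the assumed variation of 0.4. Cd34 fell from the 93.2 percentile of FPKM in control to 45.7 in TR1 and 39.4 in TR9. Of its relatives, Podxl (podocalyxin) had 29, 2 and 3 counts and was downregulated in each comparison, and Podxl2 was not called.

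Slamf1, Esam and Tek, 3 surface proteins, were not listed in TR1 or TR9. Slamf1 encodes CD150, the SLAM receptor that is used with CD48 to isolate stem cells, and it had 104 counts (7.03 FPKM) in control. Esam, an adhesion molecule of endothelial junctions and of stem cells, had 71 counts (6.98 FPKM) in control. Tek, the angiopoietin receptor TIE2, had 63 counts (2.45 FPKM) in control. The floor of 3 counts is 0.20 FPKM for Slamf1, 0.291 for Esam and 0.115 for Tek in TR1, and 0.217, 0.316 and 0.125 in TR9. Against it, Slamf1 was lower by at least 35.2-fold in TR1 and at least 32.4-fold in TR9, Esam by at least 24.0-fold and 22.1-fold, and Tek by at least 21.3-fold and 19.6-fold. All 3 were downregulated in each comparison, and they kept their calls with both assumed levels of variation.

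Of 11 genes of the SLAM receptors and their adaptors, Slamf1 included, 10 were listed. In TR1, 3 were downregulated (30%) and 0 upregulated, and in TR9 4 were downregulated (40%) and 1 upregulated (10%). Beside Slamf1, the downregulated genes in TR1 were the adaptor Sh2d1b1, with 16, 0 and 0 counts, and Slamf7, with 19, 2 and 2. Cd48, whose product is low on the stem cells themselves, had 294 counts in control, against 401 in TR1 and 123 in TR9. It was downregulated in TR9 (log2 count ratio −1.16) and not called in TR1 (0.43). Cd84 had 479.3, 659.1 and 1165.5 counts and was upregulated in TR9, by 1.38. Cd48, Ly9 and Cd244a were lower in TR9 than in TR1, and the ratio of Cd48 was −1.59 (95% interval −1.89 to −1.29). For Esam, 2 of 6 listed junction proteins (33.3%) were downregulated in each comparison, Esam itself and F11r. Cxadr, the coxsackievirus and adenovirus receptor, went the other way, with 13, 50 and 125 counts, and Clmp had 5, 3 and 120 counts and was upregulated in TR9.

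Angpt1, the ligand that activates TIE2, had the largest decrease in TR1 among those of the 9 genes with a count in each library. It had 662 expected counts in control, against 3 in TR1 and 29 in TR9, or 29.4, 0.13 and 1.37 FPKM. Control was highest and TR1 lowest, with no overlap of the intervals. The log2 count ratio was −7.81 for TR1 (95% interval −10.09 to −6.25), which rests on 3 counts, and −4.42 for TR9 (−5.01 to −3.88). As folds, TR1 was 224.0-fold lower (76.3 to 1089) and TR9 21.3-fold lower (14.7 to 32.1).

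Ligand and receptor thus were both downregulated in TR1 and in TR9, but the other genes of this pathway varied in direction. Of 8 angiopoietin and TIE genes, 7 were listed, of which 5 were downregulated and 1 upregulated in TR1, and 3 downregulated and 2 upregulated in TR9. Tie1, the co-receptor of TIE2, had 115 counts in control, against 16 in TR1 and 311 in TR9. It was downregulated in TR1, by a log2 count ratio of −2.87 (95% interval −3.72 to −2.11), and upregulated in TR9, by 1.53 (1.22 to 1.85). Svep1, a matrix protein that binds TIE1, had 4 counts in control, against 1242 in TR1 and 1015 in TR9, with ratios of 8.26 and 8.09. Dok2, an adaptor of TIE2, had 119, 13 and 17 counts and was downregulated in each comparison. Angpt2, the context-dependent antagonist, was not called.

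Procr, the endothelial protein C receptor, was close to the floor in every library. It had 7 expected counts in control, against 3 in TR1 and 0 in TR9, or 0.85, 0.36 and 0 FPKM. The values of control and TR1 overlapped in their intervals. Its log2 count ratio in TR1 was −1.24 (95% interval −3.83 to 0.89), with an adjusted p of 0.472 in the exact Poisson test. In TR9 the decrease was at least 2.18-fold, with an adjusted p of 0.0398, and was not called. In the protein C pathway, 5 of 6 genes were listed and 2 were downregulated in each comparison. These were F2r, the thrombin receptor PAR1, with 473, 1 and 11 counts, and Pros1, protein S, with 148, 13 and 42. Thbd, thrombomodulin, had 61, 41 and 38 counts and was not called.

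Hlf, a PAR bZIP transcription factor whose expression is closely tied to stem cells, was the gene whose call differed between the comparisons. It had 119 expected counts in control, against 3 in TR1 and 58 in TR9, or 3.79, 0.09 and 1.97 FPKM. TR9 lay between the others and nearer to control. The log2 count ratio was −5.33 (95% interval −7.63 to −3.75) in TR1, 40.3-fold lower, on 3 counts. In TR9 it was −0.94 (−1.42 to −0.47), 1.92-fold lower, with an adjusted p of 0.000119 in the exact Poisson test, but the log2 FPKM ratio of −0.94 was just inside the threshold of 1 and the gene was not called. With TPM scaling, in which the FPKM of every library add up to the same total, the ratio was −1.05 and Hlf was called downregulated in TR9. Of the related factors, Tef and Dbp were not called in either comparison, with 146, 107 and 134 counts and 26, 20 and 30 counts. Nfil3, a repressor that binds the same sites, was upregulated in each comparison, with 36, 131 and 70 counts.

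Msi2, the RNA-binding protein Musashi-2, kept more of its control level than the other downregulated genes. It had 744 expected counts in control, against 148 in TR1 and 253 in TR9, or 20.9, 4.03 and 7.49 FPKM. Control was highest and TR1 lowest, and no intervals overlapped. The log2 count ratio was −2.35 for TR1 (95% interval −2.62 to −2.10) and −1.46 for TR9 (−1.67 to −1.25), 5.10-fold and 2.75-fold lower. In TR9 the call was lost with the assumed variation of 0.2 or 0.4 and with a threshold of an absolute log2 ratio of 2, and in TR1 with 0.4. Of 6 genes of Musashi and stem cell RNA-binding proteins, 4 were listed. Msi1 and Lin28b were at 0 in every library. Igf2bp2 had 25, 104 and 54 counts and was upregulated in TR1, by 2.03, and not called in TR9. Syncrip, a partner of Musashi-2, had 4049, 2579 and 2458 counts and was not called.

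**Figure D2:**
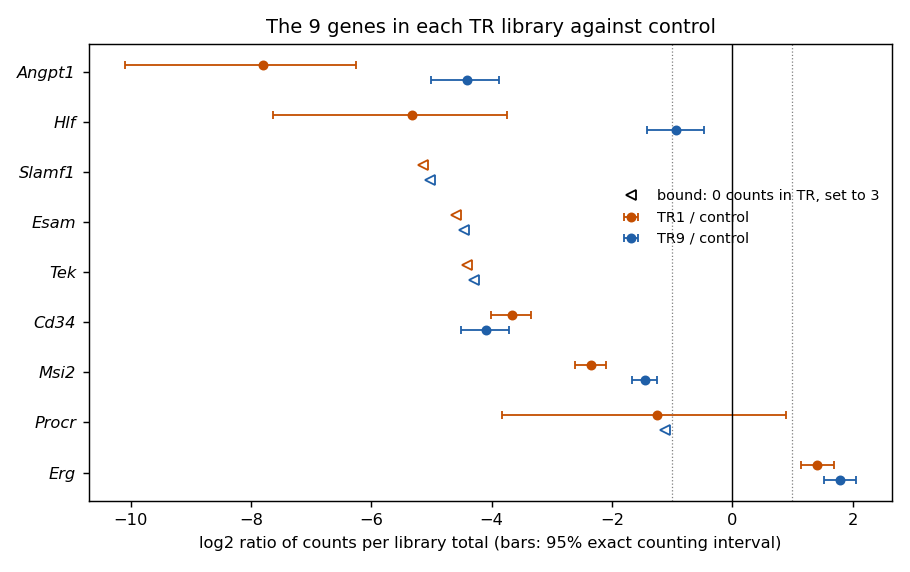
The log2 ratio of counts per library total against control (x axis) for each of the 9 genes in TR1 (orange) and TR9 (blue), with bars for the 95% exact counting interval, open triangles for bounds where the TR library had 0 counts, and dotted lines at −1 and 1. Erg lies to the right of 1, at 1.41 in TR1 and 1.78 in TR9, whereas Angpt1 lies farthest to the left in TR1, at −7.81.

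The order of the levels, on the FPKM scale, also differed between libraries. In control it was Cd34, Angpt1, Msi2, Erg, Slamf1, Esam, Hlf, Tek and Procr. Only Slamf1 and Esam, neighbors in that order, did not differ beyond counting error (ratio 1.01, 95% interval 0.738 to 1.38). In TR1 the order was Erg, Cd34, Msi2, Procr, Angpt1 and Hlf, of which the last 3 could not be ordered. In TR9 it was Erg, Msi2, Cd34, Hlf and Angpt1, and Hlf and Angpt1 did not differ beyond counting error (ratio 1.44, 0.906 to 2.33). Erg stood 5.84-fold above Cd34, the next gene, in TR1 and 5.86-fold above Msi2 in TR9.

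A direct comparison of the 2 leukemias asked whether these genes differ between them. Of the 9 genes, 6 were listed in TR1 or TR9, of which 2 were higher in TR9 (Hlf and Angpt1), 0 were lower and 4 were not called. Of all 15706 genes tested, 4.34% were higher and 2.31% lower in TR9 than in TR1. Hlf was 21.0-fold higher in TR9, a log2 count ratio of 4.39 (95% interval 2.77 to 6.71), and Angpt1 was 10.5-fold higher, 3.39 (1.70 to 5.75). Each rests on 3 counts in TR1. The call of Angpt1 was lost with the assumed variation of 0.2 and that of Hlf with 0.4. Msi2 had a ratio of 0.89 (0.59 to 1.20), Erg of 0.37 (0.18 to 0.56) and Cd34 of −0.42 (−0.94 to 0.08), none of them called. Procr had too few counts for a ratio. Slamf1, Tek and Esam were at 0 on both sides and could not be compared.

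**Figure D3:**
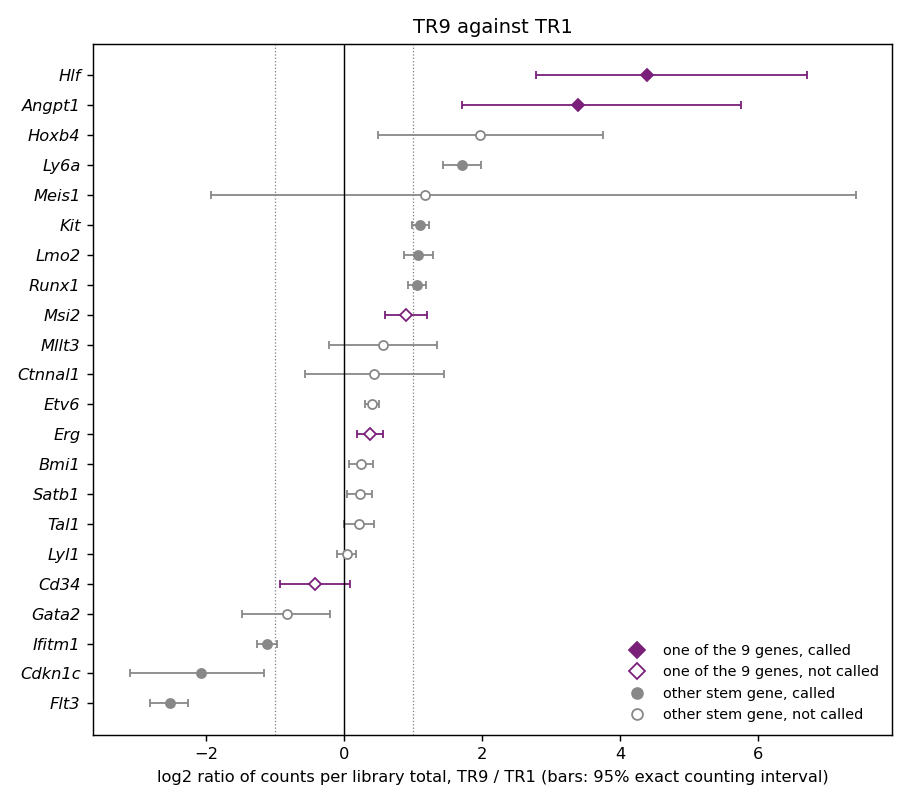
The log2 ratio of counts per library total in TR9 over TR1 (x axis) for the 5 of the 9 genes with a ratio (purple diamonds) and for other stem and multipotent progenitor genes (grey circles), filled where called, with bars for the 95% exact counting interval. Hlf at 4.39 and Angpt1 at 3.39 lie farthest to the right and Flt3 at −2.53 farthest to the left.

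To set the 9 genes beside others of the same compartment, 32 further stem and multipotent progenitor genes were examined. In TR1, 18 of the 32 (56.2%) were downregulated, 4 upregulated and 10 not called, with a median log2 FPKM ratio of −3.16. In TR9, 16 (50%) were downregulated, 2 upregulated and 14 not called, with a median of −3.14. With the assumed variation of 0.4, the downregulated genes numbered 8 in TR1 and 8 in TR9, and 0 were upregulated in either. With genes at 0 set to the floor, the median log2 count ratio of the 29 genes with a ratio or bound was −2.02 in TR1 and −1.81 in TR9. Hoxb5, Nkx2-3 and Ndn, named after their values were seen, had 3 counts or fewer in every library.

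Genes for transcription factors in the list of further stem genes were among those downregulated. Lmo2 had 1235 counts in control, against 278 in TR1 and 538 in TR9, with log2 count ratios of −2.17 and −1.10. Its partner Tal1 had 1344, 337 and 358 counts, with ratios of −2.02 and −1.81. Gfi1b, a repressor shared with the erythroid and megakaryocytic lineages, had 870 counts in control, against 0 in TR1 and 1 in TR9. Some genes named after their values were seen had the same direction. Gata2 had 915, 64 and 33 counts, Meis1 had 283.1, 1.48 and 3.05, and Hoxa9 had 144, 0 and 0. Erythroid, megakaryocyte and mast cell genes, described below, were mostly downregulated too, and the part of those lineages in these decreases was not tested.

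Other genes of this compartment did not share that direction. Ifitm1 had 246.2 counts in control, against 1436.7 in TR1 and 608.4 in TR9, and was upregulated by log2 count ratios of 2.52 and 1.40. Ly6a, which encodes the stem cell antigen Sca-1, had 50.02, 145.3 and 434.3 counts, and ratios of 1.52 and 3.22. The counts of Ly6a and Ifitm1 are fractions in part, a sign that reads were shared out between similar genes by RSEM. Kit, the receptor of stem cell factor, which is also present on promyelocytes, had 2115, 853 and 1684 counts. It was downregulated in TR1, by −1.33 (95% interval −1.45 to −1.22), and not called in TR9, at −0.23 (−0.32 to −0.14). Flt3, the receptor of early lymphoid and myeloid progenitors, had 327, 792 and 126 counts, upregulated in TR1 by 1.26 (1.07 to 1.45) and downregulated in TR9 by −1.28 (−1.59 to −0.98). These calls of Kit and Flt3 were lost with the assumed variation of 0.2, as were those of Ly6a in TR1 and of Ifitm1 in TR9. Cdkn1c, named after its values were seen, had 3, 55 and 12 counts. It was upregulated in TR1, by 4.2 (95% interval 2.55 to 6.50), and not called in TR9, at 2.1 (0.21 to 4.56). Both ratios of Cdkn1c rest on 3 counts in control. Runx1 and Lyl1, named after their values were seen, were not called against control. Their counts were 789, 713 and 1358 for Runx1, and 464, 871 and 822 for Lyl1. With TMM, median of ratios or upper quartile scaling, Lyl1 was called upregulated in each comparison.

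**Figure D4:**
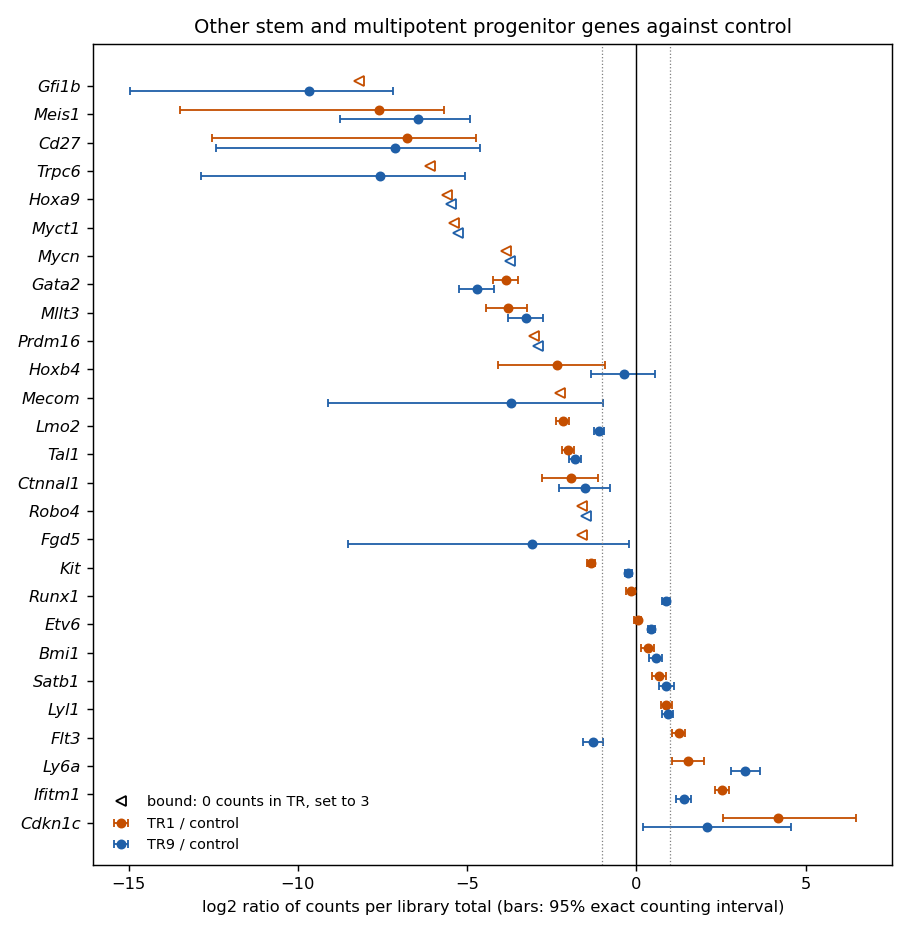
The log2 ratio of counts per library total against control (x axis) for other stem and multipotent progenitor genes with a ratio or bound, in TR1 (orange) and TR9 (blue), with bars for the 95% exact counting interval and open triangles for bounds at 0 counts. Most genes lie to the left of 0, while Cdkn1c, Ifitm1 and Ly6a lie to the right of 1 for each library. Flt3 lies on opposite sides, at 1.26 in TR1 and −1.28 in TR9.

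Several of the 9 genes are also expressed outside the stem cell compartment, so markers of other cells were counted in the same libraries. Tek, Esam, Procr, Cd34 and Erg are expressed in endothelium, and of these only Erg was upregulated. Of 14 endothelial genes, 7 were downregulated and 1 upregulated among 13 tested in TR1, and 5 were downregulated and 2 upregulated in TR9. Among those downregulated in each comparison were Plvap (90, 1 and 1 counts), Kdr (90, 0 and 0) and Stab2 (114, 0 and 2), and also Cdh5 (24, 0 and 1), named after its values were seen. In all, 8 of the 14 were at 0 in TR1 and 5 in TR9. Tie1, described above, was downregulated in TR1 and upregulated in TR9. The summed FPKM of the list was nevertheless 25.2 in control, against 36.3 in TR1 and 63.2 in TR9, because Flt1 alone held 97.1% of it in TR1 and 74.8% in TR9. Flt1, a VEGF receptor, had 42, 1248 and 1541 counts and was upregulated in each comparison.

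Angpt1 is also made by stromal cells and megakaryocytes. Of 10 stromal genes, 9 were listed and 6 were downregulated in each comparison, and their summed FPKM was 523.4 in control, against 17.1 in TR1 and 43.7 in TR9. Col1a1, a collagen of osteoblasts and fibroblasts, had 6904 counts in control, against 71 in TR1 and 31 in TR9, Col1a2 had 6336, 26 and 155, and Dcn had 142, 1 and 5. Lum was at 0 in both TR libraries, as was Adipoq in every library, both named after their values were seen. Some stromal genes went the other way, since Pdgfrb had 146, 273 and 950 counts and was upregulated in TR9, and Lepr had 46.0, 103.5 and 30.9 and was upregulated in TR1. All 8 megakaryocyte genes were downregulated in each comparison, with summed FPKM of 983.1, 3.31 and 2.33, and so were all 8 erythroid genes, with 2126, 5.75 and 10.1. At 0 were 4 of the megakaryocyte genes in TR1 and 3 in TR9, and 2 of the erythroid genes in each. Of 6 mast cell and basophil genes, 5 were downregulated in each comparison, and the summed FPKM was 926.7, 73.7 and 85.8, with 2 of the 6 at 0 in TR1 and 1 in TR9. The summed FPKM of the stromal, megakaryocyte, erythroid and mast cell lists was thus lower in the TR libraries. So was that of the 9 genes. That of the endothelial list was higher, with Flt1 at 97.1% of it in TR1 and 74.8% in TR9. More endothelial genes were downregulated than upregulated, 7 against 1 in TR1 and 5 against 2 in TR9. The part of these cells in the result was not tested.

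The TR libraries in turn held more RNA of promyelocyte genes. All 6 of them were upregulated in TR1 and 5 in TR9, with a summed FPKM of 4324 in control, against 21750 in TR1 and 24090 in TR9. Of 6 listed genes of the B lineage, 1 was downregulated (16.7%) and 1 upregulated (16.7%) in TR1. In TR9, 1 was downregulated (16.7%) and 2 were upregulated (33.3%). Their summed FPKM was 12.4, 16.7 and 199.8, of which Igll1 held 97.4% in TR9. Of 6 genes of the T lineage, 1 (16.7%) was downregulated in each comparison, with summed FPKM of 4.98, 2.97 and 3.62. That share is near those of all genes tested, 13.0% in TR1 and 10.8% in TR9. The part of the promyelocytic and lymphoid genes in the result for the 9 genes was not tested.

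**Figure D5:**
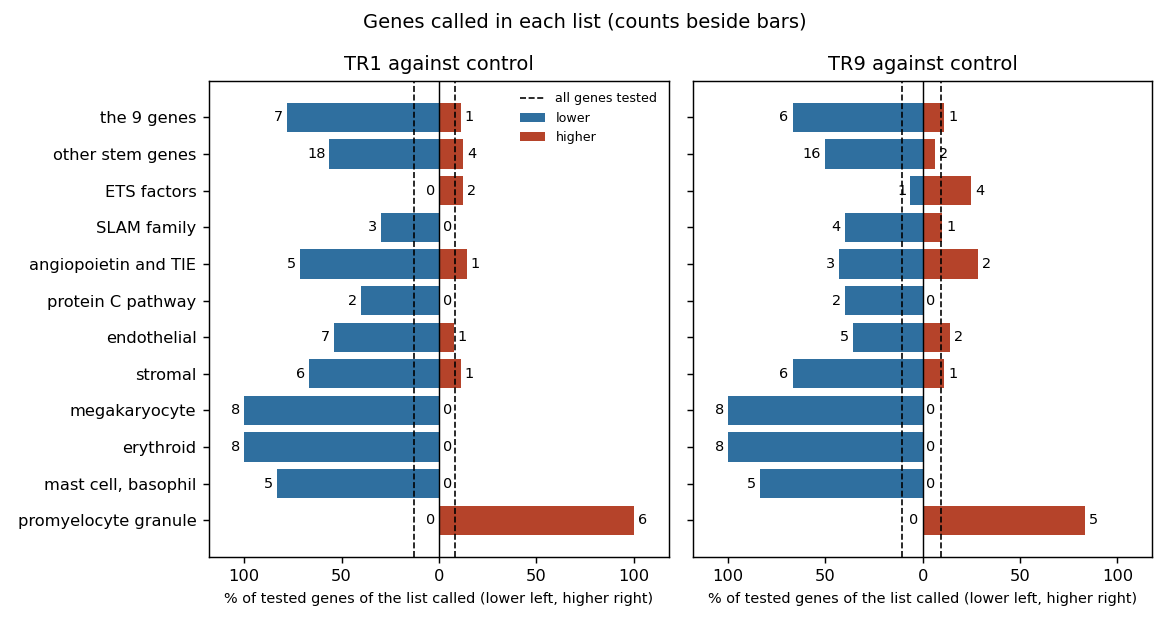
Share of the tested genes of each list that were called (x axis, %; downregulated to the left in blue, upregulated to the right in red, with the number of genes beside each bar) in TR1 (left panel) and TR9 (right panel) against control, with dashed lines at the shares of all genes tested. The 9 genes stand at 7 lower and 1 higher in TR1 and 6 lower and 1 higher in TR9, beside 8 of 8 lower for the megakaryocyte and erythroid lists. The bar labeled promyelocyte granule holds the list of promyelocyte genes.

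Last, genes with a pattern of levels like that of each of the 9 were sought over the 3 libraries, by the Euclidean distance of log2(FPKM + 0.1), among genes with at least 50 counts in a library. With 3 libraries of 1 sample each, the distance is a description only. Nearest to Erg were Slc39a11, with 12.4, 32.8 and 48.1 FPKM in control, TR1 and TR9 (distance 0.147), and Cpq, with 11.5, 33.3 and 45.9 (0.165). For Msi2 they were Rab38 (0.171) and Gpsm2 (0.234), and for Cd34 Tsc22d1 (0.397) and Tpm4 (0.545). Hlf had Pgpep1 (0.468), with 3.00, 0.11 and 1.58 FPKM, and Wdr35 (0.519). Slamf1 and Esam shared Zbtb46 as the nearest gene, with 7.08 FPKM in control and 0 in TR1 and TR9, at distances of 0.0101 and 0.0202. After it came Cyp11a1 (0.0379) for Slamf1 and Lrrc32 (0.0413) for Esam. Tek had Ankrd35 (0.0755) and St6galnac3 (0.109). Angpt1 and Procr had no gene so near, with F2rl2 (0.869) and Slc24a5 (0.991) for Angpt1, and Ank3 (1.16) and Cacna1e (1.29) for Procr. Procr had 7 counts in control, so the minimum of 50 counts left out genes at its own level. Slamf1, Esam and Tek, with their nearest genes, were at 0 in TR1 and TR9, so their small distances rest on the control level alone. The distances are therefore not comparable between the 9 genes.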

How the data were processed

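RNA-seq was analysed in 3 libraries, 1 per group, with groups taken from the sample labels. According to the submitters' processing notes, the authors mapped reads with BWA and Bowtie to mm9 and quantified genes with RSEM, in versions not given in the sources used here. The deposited values per gene are an expected count, not normalized and not always whole, and an FPKM, scaled for gene length and library total. Between 19.9% and 21.2% of listed genes had a count that was not whole, but the counts of all 9 genes were whole in every library (tolerance 0.005).

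Gene IDs were matched to symbols and promoters of RefSeq on GRCm38.p6 (16698 of 16742 matched). No coordinates were mixed between that build and mm9. After rounding, expected counts of 2 libraries were set against each other in an exact Poisson test conditional on their sum (scipy 1.17.1, numpy 2.4.6, pandas 2.3.3, Python 3.11.15), two-sided by doubling the smaller tail, with Benjamini-Hochberg adjustment over all genes listed in either library. FPKM under 0.01 were set to 0.01. Intervals are 95% Clopper-Pearson. The design set 1 to 3 counts to the floor as well, but such ratios are given here as measured, with their intervals. The members and lists were chosen with earlier results of these data known. Of lists over 8 genes, the 3 genes of highest FPKM called in each direction are named, and others are stated to be chosen after their values were seen. Some genes of the lists are included in the counts but are not reported here by name. The test was checked on simulated counts with Poisson error only, and changes were planted only in genes well above the floor. That check therefore covers neither variation between replicates nor genes near the floor. Alternatives were TMM (edgeR 4.0.16, R 4.3.3), median of ratios (DESeq2 1.42.0), upper quartile and TPM scaling, pseudocounts of 1 and 0.1 FPKM, a minimum of 10 counts, the exact test of edgeR at an assumed variation between replicates of 0.2 or 0.4, a false discovery rate of 0.05, a log2 threshold of 2, and one of 1 without a test. Figures were drawn with matplotlib 3.10.9.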

Additional observations from a re-analysis of the deposited data

Results flagged for a closer look

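Some stem and multipotent progenitor genes differed between TR9 and TR1 in the direct Poisson comparison of these 2 libraries, with values given as the log2 ratio of counts per library total in TR9 over TR1. Of the 9 genes, Hlf (4.39) and Angpt1 (3.39) were higher in TR9. Of the other genes of this compartment, Ly6a (1.70), Kit (1.10), Lmo2 (1.07) and Runx1 (1.05) were higher in TR9, whereas Flt3 (−2.53), Cdkn1c (−2.08) and Ifitm1 (−1.12) were lower. The calls of Kit, Lmo2 and Runx1 were lost with TMM or median of ratios scaling, and those of Lmo2 and Runx1 also with the upper quartile. At an assumed variation between replicates (biological coefficient of variation) of 0.2, all of these calls but those of Hlf and Flt3 were lost, and with 0.4 those as well. Cdkn1c and Runx1 were named after their values were seen. Each leukemia was 1 library, so the spread between mice of the same leukemia was not measured.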

How the results depend on the processing

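No ratio of the 9 genes changed direction under any alternative. Of their log2 ratios under alternative scalings and pseudocounts, 136 left the gene called or not called as before, and 2 made it called, both with TPM scaling (Hlf in TR9 against control, −1.05, and Msi2 in TR9 against TR1, 1.01). Scaling moved every ratio by between −0.23 and 0.24 in TR1, and by between −0.11 and 0.12 in TR9. No paired analysis was possible because each group had 1 library.

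Of the counts of called genes among the 9, 64 stayed within 1.5 times and 8 did not. For the lists of related genes and cell markers, 983 such counts stayed and 169 did not, and the calls of their genes under each alternative are not given here. The upregulated gene, Erg, was not called in TR1 with an assumed biological coefficient of variation (BCV) of 0.2 (0 genes) or 0.4 (0), or at an absolute log2 ratio of 2 (0), nor in TR9 with a BCV of 0.4 (0) or at a ratio of 2 (0). Between TR9 and TR1, 1 gene was lower without a test (Procr), and 1 was higher with a BCV of 0.2 and 0 with 0.4. Of the 32 other stem genes, with a BCV of 0.4, 8 were downregulated in TR1 and 8 in TR9, and 0 were upregulated in either. With a BCV of 0.2, 2 were upregulated in TR1 and 1 in TR9, and at a ratio of 2 these were 2 and 1. With upper quartile scaling 4 were upregulated in TR9. Between TR9 and TR1, 1 was lower with a BCV of 0.2, 0 with 0.4 and 2 at a ratio of 2. Those higher numbered 1 with TMM and 1 with the median of ratios (Ly6a), 2 with the upper quartile (Ly6a and Kit), 0 with either BCV, 0 at a ratio of 2 and 11 without a test. At this depth, Procr (7 counts or fewer) allows no comparison, and ratios of Hlf and Angpt1 in TR1 rest on 3 counts. The assumed variation was not measured, as no group has a replicate.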
